A study of Mus musculus with 18 samples.

Results

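The comparison of memory with naive CD8+ T cells of wild-type (WT) mice rests on 6 of the 18 libraries of the series, 3 of each cell state, chosen by the labelled genotype and cell state. The WT memory cells were differentiated in culture from naive CD8+ T cells, and the WT naive cells came straight from lymphoid organs (lymph nodes and spleen) of mice aged 8 weeks. In these 6 libraries the effects of cell state, culture and handling therefore cannot be told apart. All of these libraries carry the genotype label WT and the label no treatment. Of the other libraries, 3 are WT effector cells and 9 come from a conditional knockout (cKO) of Hspa9; Hspa9 encodes GRP75, the HSP70 chaperone of the mitochondrial matrix, and it is not deleted in either group compared here. WT effector cells, also grown in culture from naive cells, serve as a second point of reference, with 3 libraries. The strain, the culture conditions that gave memory or effector cells, and any Cre or floxed allele carried by the WT mice are not given in the sources used here. Cells were lysed in TRIzol, and poly-A RNA was sequenced in bulk. The library protocol names no strand marking, so reads of overlapping genes on opposite strands may not have been told apart.

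CD8+ T cells recognise peptides on MHC class I and kill infected or transformed cells. A naive cell circulates through lymphoid organs in a quiescent state, guided by CCR7 and kept alive by IL-7. After antigen it divides and arms itself as an effector cell, and some progeny persist as memory cells. Central memory cells keep the lymph node receptors while they carry CD44, the IL-2 and IL-15 receptor chain CD122 and chromatin that lets effector genes respond fast. In culture, memory-like cells are usually made by activating naive cells and then growing them in homeostatic cytokines such as IL-7 or IL-15.

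Read counts recovered from the deposited values totalled 14771251 to 17155017 per WT memory library and 15489532 to 16747845 per WT naive library. Levels are given as CPM, the reads of a gene set to the same fixed total in each library and scaled by the TMM method over the 6 libraries, while summed levels of gene lists are CPM of the library total. Levels in WT effector cells come from the fit of WT memory against WT effector cells. Whether the 3 libraries of a group came from separate mice or cultures is not stated, so p-values measure the spread between these libraries, which may be technical. A gene was called at an adjusted p under 0.05, where the p-value comes from edgeR's quasi-likelihood test with Benjamini-Hochberg adjustment over all genes tested. Errors of log2 fold changes are standard errors, errors of means are SD, and n = 3 libraries per group. In bulk RNA, fewer cells of a type cannot be told apart from less of the RNA per cell.

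The larger differences of WT memory from WT naive cells were mostly gains. Of 14145 genes tested, 5127 were called (36.2%), of which 2759 were higher in WT memory cells (19.5% of genes tested) and 2368 were lower (16.7%). Changes of at least 2-fold were made up of 1262 rises (8.92%) and 260 falls (1.84%). Of these, 427 rises had fewer than 10 reads in each WT naive library and 34 falls fewer than 10 in each WT memory library. Such genes passed the filter through 1 group alone and had to differ, so for those named below reads are given and no test. A lower bound given for a gene with 0 WT naive reads describes its reads and tests no difference. Genes with at least 10 reads in at least 1 library of each group had 835 rises and 226 falls of at least 2-fold. Some of these still had too few reads in 1 group to meet the filter there, such as Itgax with 23 reads over the WT naive libraries. They too are named below without a test. Lists counted without the genes that passed through 1 group alone may still hold them. The median absolute log2 fold change over all genes was 0.26, and the median was -0.00. Against WT effector cells, the other cells grown in culture, more of the transcriptome differed. There 9728 of 14373 genes were called (67.7%), 4842 higher in WT memory cells (33.7%) and 4886 lower (34.0%), with a median absolute log2 difference of 0.52. Both comparisons use the same WT memory libraries, so their results are set side by side and are not independent of each other. Counts of list members below are to be read beside the shares of all genes tested in the same comparison. The number of falls against WT naive cells was 1553 without WT memory replicate 3. The number of rises of at least 2-fold was 795, 839 and 797 without WT memory replicate 1, 2 and 3, since a gene read only in memory cells then misses the filter of 10 reads in 3 libraries. Counts given as without a library leave out 1 library at a time.

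**Figure D1:**
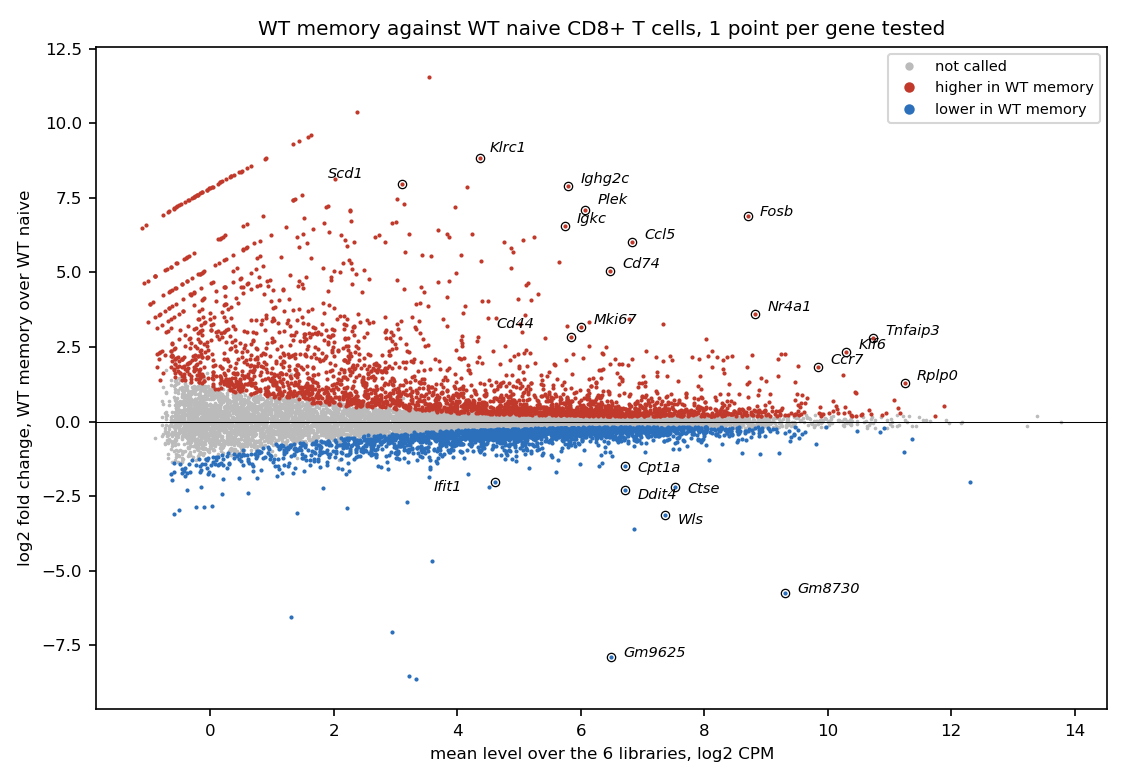
Log2 fold change of WT memory over WT naive cells (vertical axis) against mean level as log2 CPM (horizontal axis) for the 14145 genes tested. Called genes are coloured and some are named: rises of at least 2-fold (1262) outnumber falls of that size (260), and the deepest falls of well expressed genes belong to the gene copies Gm8730 and Gm9625.

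The identity of the cells was checked first. The CD8 T cell identity genes, among them the CD8 and CD3 chains and the kinase LCK, differed little between the states: 0 of 11 rose, 1 fell and the median log2 fold change was -0.09, against -0.00 over all genes. Cd8a, a coreceptor chain, had 1330.1, 1428 and 1350.4 CPM in WT memory cells, against 1473, 1467 and 1446 CPM in WT naive cells (log2 fold change -0.09 ± 0.07, adjusted p = 0.311, edgeR). The groups stood close together and the difference was not called. The 1 member that fell, Cd8b1, had 891, 1001 and 909 CPM in WT memory cells, against 1105, 1058 and 1046 CPM in WT naive cells (log2 fold change -0.20 ± 0.07, adjusted p = 0.0427, edgeR), and lost its call without WT naive replicate 1 or 3 or WT memory replicate 1 or 3 (log2 fold change -0.21 to -0.15). With 1 library left out, the number of falls on the list was 0 without WT naive replicate 1 or WT memory replicate 1 or 3, 2 without WT naive replicate 2 and 3 without WT memory replicate 2, and 1 rose without WT naive replicate 2; with scaling by library totals alone 5 fell. Hspa9 had 239, 254 and 248 CPM in WT memory cells, against 238, 222 and 239 CPM in WT naive cells (log2 fold change 0.08 ± 0.06, adjusted p = 0.339, edgeR). It was not called, and all 6 libraries expressed it.

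Genes of naive and central memory T cells moved in both directions. Of 24 genes of naive and central memory T cells, 9 rose, 7 fell and 8 did not pass the test, with a median log2 fold change of 0.12. Against WT effector cells 23 of the same 24 genes were higher in WT memory cells and 1 was lower, with a median log2 difference of 2.94.

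Ccr7 (chr11:99035022-99045903, GRCm39), the chemokine receptor that brings T cells into lymph nodes, had 1377, 1521 and 1386 CPM in WT memory cells, against 369.8, 448 and 386 CPM in WT naive cells (log2 fold change 1.83 ± 0.08, adjusted p = 4.73e-11, edgeR). Every memory library stood above every naive library, at 3.56 times the naive level. In the fit with WT effector cells Ccr7 averaged 1386 CPM in WT memory cells and 26.3 CPM in WT effector cells (log2 difference 5.72 ± 0.07). Klf2, the transcription factor that drives expression of S1pr1, had 1285, 1449.6 and 1275 CPM in WT memory cells, against 721, 1060.0 and 708 CPM in WT naive cells (log2 fold change 0.69 ± 0.12, adjusted p = 3.38e-04, edgeR). WT naive replicate 2 was the highest naive library for Klf2, as it was for the summed level of the immediate early genes. S1pr1, the receptor for exit from lymph nodes, had 547, 572 and 532 CPM in WT memory cells, against 515, 501 and 519.5 CPM in WT naive cells (log2 fold change 0.10 ± 0.07, adjusted p = 0.237, edgeR). It was not called.

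The transcription factors of stem-like T cells moved by little and not all one way. Tcf7, which encodes TCF-1, had 1791, 1868 and 1758 CPM in WT memory cells, against 1482, 1596 and 1458 CPM in WT naive cells (log2 fold change 0.26 ± 0.07, adjusted p = 0.0103, edgeR). That call was lost without WT naive replicate 1 (log2 fold change 0.24, adjusted p = 0.050001) or without WT naive replicate 3 (log2 fold change 0.23, adjusted p = 0.0657). Lef1, its partner on the same DNA element, had 419, 436 and 410.5 CPM in WT memory cells, against 579, 616 and 561 CPM in WT naive cells (log2 fold change -0.47 ± 0.07, adjusted p = 4.49e-05, edgeR). Lef1 fell with no overlap between the groups. Id3, an inhibitor of E proteins found in long-lived memory cells, averaged 30.6 ± 2.23 CPM in WT memory cells and 20.6 ± 0.500 CPM in WT naive cells (log2 fold change 0.57 ± 0.09, adjusted p = 1.90e-04, edgeR). Bach2 and Foxo1, both restraints on effector genes, had log2 fold changes of 0.14 ± 0.07 and 0.09 ± 0.06 and were not called, although Bach2 was called without WT memory replicate 2 (0.20).

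Other genes of the naive state were lower in WT memory cells. Ccr9, the receptor for the gut and thymus chemokine CCL25, had 139, 129 and 133 CPM in WT memory cells, against 265, 239 and 252 CPM in WT naive cells (log2 fold change -0.91 ± 0.07, adjusted p = 2.23e-08, edgeR). Igfbp4, which encodes an IGF-binding protein, had 186, 213 and 176 CPM in WT memory cells, against 335, 345 and 309 CPM in WT naive cells (log2 fold change -0.78 ± 0.08, adjusted p = 8.99e-07, edgeR). Neither gene's groups overlapped, and WT effector cells averaged 6.85 ± 0.234 CPM of Ccr9 and 4.70 ± 0.955 CPM of Igfbp4. Il7r, the IL-7 receptor alpha chain, had 675, 662 and 641 CPM in WT memory cells, against 808, 779 and 809 CPM in WT naive cells (log2 fold change -0.28 ± 0.07, adjusted p = 0.00367, edgeR), a fall whose adjusted p was 0.0532 without WT memory replicate 3. In the fit with WT effector cells, Il7r averaged 639.7 CPM in WT memory cells and 71.9 CPM in WT effector cells (log2 difference 3.15 ± 0.05). Cd27, a TNF receptor family member of naive and memory cells, had a log2 fold change of -0.34 ± 0.06 (adjusted p = 6.05e-04, edgeR).

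**Figure D2:**
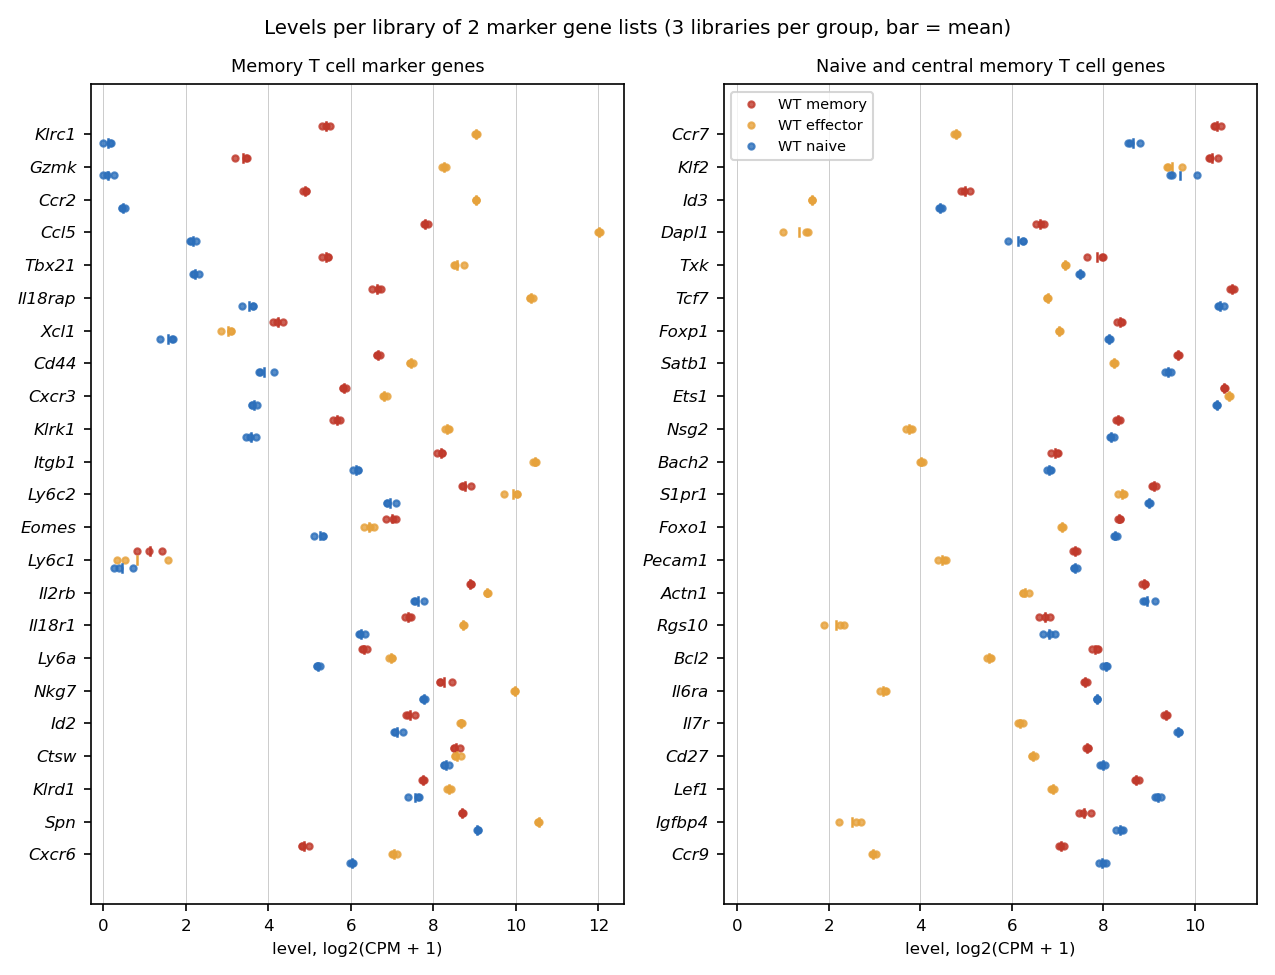
Levels per library, as log2(CPM + 1), of memory marker genes (left) and of naive and central memory genes (right) in WT memory, WT effector and WT naive cells, each point 1 library and each bar a mean of 3, for most members of both lists. WT memory cells stand near or above WT naive cells for Ccr7 and Tcf7 and apart from WT effector cells, and between WT naive and WT effector cells for most memory markers, such as Cd44 and Ccl5.

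Surface and functional markers of memory T cells rose together. Of 24 memory marker genes tested, 21 rose, 2 fell and 1 did not pass, with a median log2 fold change of 1.94, and 18 of 21 rose without the 3 that passed the filter through WT memory cells alone (median log2 fold change 1.77). Against WT effector cells 2 of the same genes were higher in WT memory cells and 20 were lower, with a median log2 difference of -1.57.

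Cd44 (chr2:102641486-102732010, GRCm39), the hyaluronan receptor used to sort antigen-experienced T cells, had 99.0, 103 and 98.4 CPM in WT memory cells, against 12.8, 12.8 and 16.6 CPM in WT naive cells (log2 fold change 2.83 ± 0.10, adjusted p = 1.47e-12, edgeR). WT memory cells held 7.13 times the naive level without overlap, and WT effector cells had 172, 173 and 181 CPM. Il2rb, which encodes CD122, had 477, 478 and 472 CPM in WT memory cells, against 185, 218 and 188 CPM in WT naive cells (log2 fold change 1.27 ± 0.07, adjusted p = 1.01e-09, edgeR). Eomes, a T-box factor that sustains Il2rb in memory cells, had 129.7, 135 and 115 CPM in WT memory cells, against 39.2, 39.1 and 33.3 CPM in WT naive cells (log2 fold change 1.77 ± 0.09, adjusted p = 1.13e-10, edgeR). For both genes the 2 groups stood apart. Eomes was one of the few memory markers that was higher in WT memory than in WT effector cells, averaging 123 CPM in WT memory cells and 86.7 CPM in WT effector cells (log2 difference 0.50 ± 0.07).

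Cxcr3, the receptor for interferon-induced chemokines, averaged 56.0 ± 1.86 CPM in WT memory cells and 11.5 ± 0.536 CPM in WT naive cells (log2 fold change 2.28 ± 0.09, adjusted p = 8.84e-12, edgeR). Ccl5, a chemokine stored by memory CD8+ T cells, had 218, 231 and 220.5 CPM in WT memory cells, against 3.31, 3.73 and 3.37 CPM in WT naive cells (log2 fold change 6.00 ± 0.09, adjusted p = 1.36e-16, edgeR). The rise was 64.1-fold, yet WT effector cells held far more, 4089, 4146 and 4181 CPM. Ly6c2, a surface protein of memory and effector CD8+ T cells, averaged 437 ± 38.4 CPM in WT memory cells and 123 ± 11.4 CPM in WT naive cells (log2 fold change 1.83 ± 0.08, adjusted p = 4.60e-11, edgeR). Xcl1, a chemokine that attracts cross-presenting dendritic cells, had 16.3, 19.5 and 17.4 CPM in WT memory cells, against 2.21, 1.60 and 2.16 CPM in WT naive cells (log2 fold change 3.16 ± 0.17, adjusted p = 3.84e-10, edgeR). Cxcr6, a receptor of tissue-resident and effector T cells, went the other way, with 26.9, 30.8 and 26.9 CPM in WT memory cells, against 64.0, 62.4 and 65.1 CPM in WT naive cells (log2 fold change -1.18 ± 0.08, adjusted p = 1.44e-08, edgeR).

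Among genes whose mean log2 CPM was 4 or more and whose groups did not overlap, the 12 largest rises held NK-type receptors, chemokine genes, MHC class II genes and an AP-1 gene. Klrc1, which encodes the inhibitory receptor NKG2A, had 41.0, 38.6 and 43.7 CPM in WT memory cells, against 0.123, 0 and 0.127 CPM in WT naive cells (1964 reads over the WT memory and 4 over the WT naive libraries). Scart1, a scavenger receptor gene known from gamma-delta T cells, had 37.3, 34.2 and 34.9 CPM in WT memory cells, against 0.123, 0.0592 and 0.254 CPM in WT naive cells (1691 reads over the WT memory and 7 over the WT naive libraries). Both were nearly absent from WT naive cells and passed the filter through WT memory cells alone. Plek, a substrate of protein kinase C in leukocytes, had 134, 136 and 129 CPM in WT memory cells, against 1.29, 1.12 and 0.445 CPM in WT naive cells (6358 reads over the WT memory and 47 over the WT naive libraries). The inhibitory receptor gene Lilrb4b and the integrin gene Itgax are known from myeloid cells and activated T cells. Lilrb4b had a log2 fold change of 6.18 ± 0.15, and Itgax had 1784 reads over the WT memory and 23 over the WT naive libraries. Others were Fosb, Ccl5 and the MHC class II genes H2-Ab1 and H2-Aa (log2 fold changes of 5.81 and 5.70). H2-Eb1, also of MHC class II, had 2540 reads over the WT memory and 40 over the WT naive libraries. Jchain, the joining chain of secreted IgM and IgA, had 1546 reads over the WT memory and 33 over the WT naive libraries. Markers of B cells and of myeloid cells moved with these genes. The lists share members with these rises, since Itgax is on the myeloid list and H2-Aa, like Cd74, on the B cell list. The myeloid markers summed to 80.8 to 90.4 CPM in WT memory cells and 5.62 to 6.03 CPM in WT naive cells. Itgax alone had 35.2, 35.1 and 41.4 CPM in WT memory cells. The B cell markers without Ighm summed to 385 to 429 CPM in WT memory cells and 36.4 to 40.1 CPM in WT naive cells, and the part of both in these rises was not tested.

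The 12 largest falls under the same rule, which leaves out gene models, were smaller than the rises. Wls (chr3:159545309-159644300, GRCm39), which encodes the transport protein for WNT ligands, had 34.8, 32.4 and 33.1 CPM in WT memory cells, against 315, 283 and 291 CPM in WT naive cells (log2 fold change -3.15 ± 0.07, adjusted p = 2.09e-14, edgeR). The memory level was lower by 8.87-fold. Ddit4, an inhibitor of mTORC1, had 33.0, 39.6 and 34.1 CPM in WT memory cells, against 187, 157 and 179 CPM in WT naive cells (log2 fold change -2.29 ± 0.09, adjusted p = 5.11e-12, edgeR). Ctse, an aspartic protease, had 64.1, 65.1 and 66.8 CPM in WT memory cells, against 298, 308 and 301 CPM in WT naive cells (log2 fold change -2.21 ± 0.07, adjusted p = 2.13e-13, edgeR). In each of these genes the groups stood far apart. Ramp1, a subunit of the receptor for the neuropeptide CGRP, had 19.3, 26.5 and 23.2 CPM in WT memory cells, against 72.0, 76.6 and 72.8 CPM in WT naive cells (log2 fold change -1.68 ± 0.10, adjusted p = 1.61e-09, edgeR), and WT effector cells had less than 1 CPM (0.593, 0.462 and 0.308). Slfn5, a Schlafen family gene induced by interferon, averaged 40.9 ± 0.410 CPM in WT memory cells and 116 ± 6.39 CPM in WT naive cells (log2 fold change -1.51 ± 0.07, adjusted p = 8.97e-11, edgeR). Others were Zfp605, Ifit1, Neb, Cpt1a, Acpp and Tlr12, with log2 fold changes between -2.19 for Zfp605 and -1.34 for Tlr12.

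The immediate early genes, whose transcription starts within minutes of receptor or stress signals, were higher in WT memory cells almost as a block. Of 20 tested, 19 rose and 1 fell, with a median log2 fold change of 1.99, and 18 of 19 rose without the 1 that passed the filter through WT memory cells alone (median log2 fold change 1.86). Against WT effector cells 13 were higher in WT memory cells and 6 were lower, with a median log2 difference of 0.89. Summed over the list, their level was 11679 to 12290.0 CPM in WT memory cells, 6669.6 to 7366 CPM in WT effector cells and 3308 to 4044 CPM in WT naive cells. Replicate 2 was the highest library of each group in this sum.

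Fosb (chr7:19036621-19043976, GRCm39), a subunit of the AP-1 transcription factor, had 839.7, 799 and 839.6 CPM in WT memory cells, against 6.38, 7.81 and 6.68 CPM in WT naive cells (log2 fold change 6.89 ± 0.10, adjusted p = 5.92e-17, edgeR). This 118-fold difference was among the largest of any well expressed gene, and WT effector cells had 295, 333 and 298 CPM. Its partners Fos, Jun and Junb, chosen after their values were seen, had log2 fold changes of 2.11 ± 0.09, 1.86 ± 0.11 and 1.56 ± 0.13. Fos itself averaged 951 ± 40.9 CPM in WT memory cells and 221 ± 26.5 CPM in WT naive cells, with no overlap. Fosl2, another AP-1 subunit, had 305, 282 and 291 CPM in WT memory cells, against 29.6, 33.5 and 28.6 CPM in WT naive cells (log2 fold change 3.26 ± 0.08, adjusted p = 2.12e-14, edgeR). Klf6, a zinc finger factor of the early response, had 2049, 2144 and 2099.6 CPM in WT memory cells, against 409, 399 and 429.5 CPM in WT naive cells (log2 fold change 2.35 ± 0.07, adjusted p = 3.63e-13, edgeR). Klf4, a related factor that restrains proliferation of CD8+ T cells, had 65.0, 67.1 and 66.1 CPM in WT memory cells, against 3.44, 2.31 and 2.54 CPM in WT naive cells (log2 fold change 4.58 ± 0.13, adjusted p = 1.04e-13, edgeR). WT effector cells had 12.4, 10.8 and 11.1 CPM, well below WT memory cells. Dusp2, a phosphatase of MAP kinases, was the list's only fall, with 238, 274 and 245 CPM in WT memory cells, against 322, 384 and 313 CPM in WT naive cells (log2 fold change -0.43 ± 0.08, adjusted p = 7.81e-04, edgeR).

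The NR4A nuclear receptors, which report antigen receptor signals and restrain effector genes, were higher too. Nr4a1 had 823, 872 and 823 CPM in WT memory cells, against 65.3, 76.3 and 65.8 CPM in WT naive cells (log2 fold change 3.60 ± 0.08, adjusted p = 1.33e-14, edgeR). Nr4a2 had 74.8, 65.2 and 67.9 CPM in WT memory cells, against 3.68, 5.15 and 3.37 CPM in WT naive cells (log2 fold change 4.08 ± 0.13, adjusted p = 5.67e-13, edgeR). Nr4a3 averaged 54.7 ± 6.96 CPM in WT memory cells and 15.1 ± 1.18 CPM in WT naive cells (log2 fold change 1.86 ± 0.11, adjusted p = 1.24e-09, edgeR). All 3 receptors separated the groups without overlap. Of the 7 genes of the NR4A, TOX and EGR list, 4 rose and 2 fell, with Egr1 at 0.84 ± 0.09 and Egr3 at -0.63 ± 0.09, both zinc finger factors induced by receptor signals. Tnfaip3, which encodes the NF-kappaB inhibitor A20 and was chosen after its values were seen, had 3002, 2964 and 3011 CPM in WT memory cells, against 399.5, 464 and 423 CPM in WT naive cells (log2 fold change 2.80 ± 0.08, adjusted p = 1.36e-13, edgeR). WT effector cells had 3274, 3326 and 3284 CPM.

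The upstream stretch of 19 immediate early genes was available in RefSeq's promoter table (build GRCm38.p6), and motifs were counted in the 150 bases before the start on both strands. The cyclic AMP response element TGACGTC was in 3 of 19 (15.8%), against 2.66% of 27025 genes with a promoter in the table. The CArG box was in 1 of 19 (5.26%), against 1.04% of all genes. The letters of both elements were chosen after values were seen, and a match describes letters, not a bound site.

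**Figure D3:**
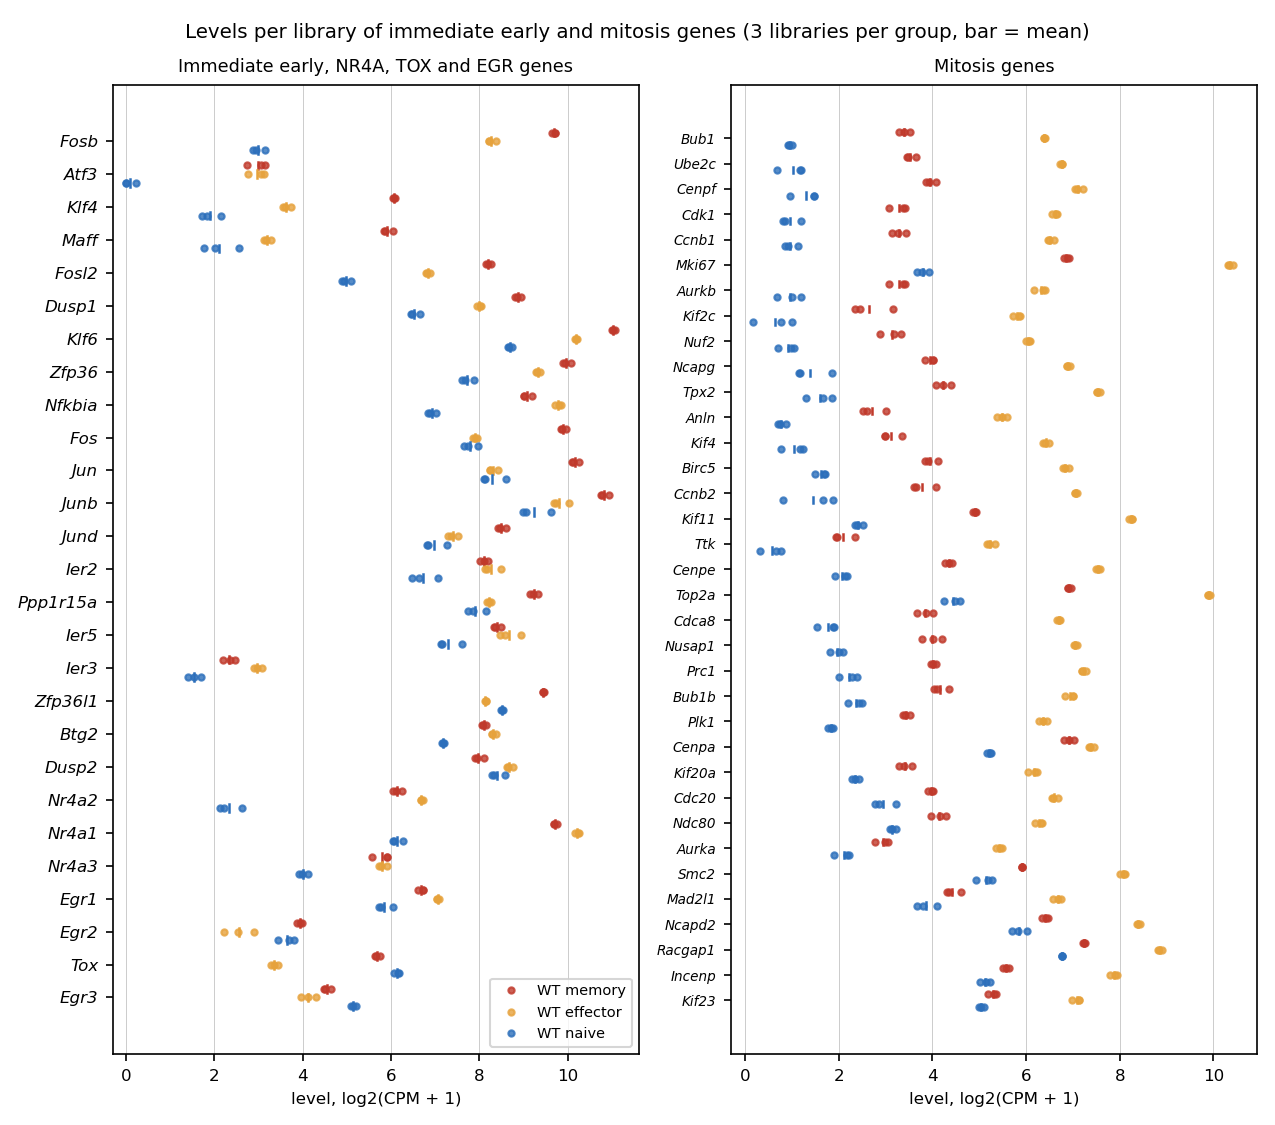
Levels per library, as log2(CPM + 1), of immediate early, NR4A, TOX and EGR genes (left) and of mitosis genes (right) in WT memory, WT effector and WT naive cells, each point 1 library and each bar a mean of 3. Immediate early genes such as Fosb stand highest in WT memory cells and lowest in WT naive cells, while mitosis genes such as Mki67 stand between WT effector and WT naive cells in WT memory cells.

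Cell cycle genes were higher in WT memory than in WT naive cells, and far below WT effector cells. Of 35 mitosis genes, 35 rose and 0 fell against WT naive cells, with a median log2 fold change of 2.58. Against WT effector cells 35 of 35 were lower in WT memory cells, with a median log2 difference of -3.09. Summed, the mitosis genes were at 1043 to 1074 CPM in WT memory cells, 6570.4 to 6757 CPM in WT effector cells and 417 to 422 CPM in WT naive cells. Of 35 DNA replication genes, 21 rose and 1 fell (0 without WT naive replicate 3 or WT memory replicate 1, 2 or 3 and 2 without WT naive replicate 1), with a median log2 fold change of 0.47, and all 35 were lower than in WT effector cells (median log2 difference -1.70).

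Mki67 (chr7:135291513-135318090, GRCm39), the proliferation antigen Ki-67, had 119, 111 and 116 CPM in WT memory cells, against 14.3, 11.7 and 12.7 CPM in WT naive cells (log2 fold change 3.16 ± 0.09, adjusted p = 1.28e-13, edgeR). In the fit with WT effector cells it averaged 112 CPM in WT memory cells and 1304 CPM in WT effector cells (log2 difference -3.54 ± 0.06). Top2a, the topoisomerase that untangles sister chromatids, had 123, 118 and 119 CPM in WT memory cells, against 21.3, 17.9 and 23.3 CPM in WT naive cells (log2 fold change 2.52 ± 0.09, adjusted p = 1.87e-12, edgeR). Kif11, a spindle motor, had 28.9, 28.2 and 29.5 CPM in WT memory cells, against 4.11, 4.74 and 4.26 CPM in WT naive cells (log2 fold change 2.72 ± 0.12, adjusted p = 2.60e-11, edgeR). These genes were expressed in every naive library, at a low level, and no memory library came near it. Bub1, a kinase of the spindle checkpoint, had the largest rise of the list, with 8.72, 9.55 and 10.5 CPM in WT memory cells, against 0.920, 0.888 and 1.02 CPM in WT naive cells (log2 fold change 3.34 ± 0.22, adjusted p = 4.26e-09, edgeR). Among replication genes Mcm6, a subunit of the replicative helicase, had 138, 154 and 144 CPM in WT memory cells, against 51.5, 55.8 and 49.3 CPM in WT naive cells (log2 fold change 1.48 ± 0.07, adjusted p = 1.69e-10, edgeR). Rrm2, the regulated subunit of ribonucleotide reductase, averaged 28.6 ± 2.70 CPM in WT memory cells and 4.93 ± 1.03 CPM in WT naive cells (log2 fold change 2.53 ± 0.14, adjusted p = 8.22e-10, edgeR).

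Promoters of mitosis genes are known for CCAAT boxes, bound by NF-Y, and for the cell cycle homology element TTTGAA, bound by the DREAM complex. Of 31 mitosis genes matched in RefSeq's promoter table, 23 (74.2%) held CCAAT within the 150 bases before the start, against 27.7% of all 27025 genes, counted on both strands. TTTGAA was in 11 of 31 (35.5%), against 10.5% of all genes. The E2F element TTCCCGC was in 7 of 27 matched DNA replication genes (25.9%), against 3.03% of all genes. The stretches of Top2a, at chr11:99024190-99024339 (minus strand), Kif11, at chr19:37376232-37376381 (plus strand), and Bub1, at chr2:127831860-127832009 (minus strand), are shown as examples of how these letters lie before the start. Coordinates are on GRCm38.p6, each stretch reads 5′ to 3′ along the gene, and capitals mark CCAAT or its reverse complement ATTGG, and likewise TTTGAA or its reverse complement TTCAAA.
Top2a: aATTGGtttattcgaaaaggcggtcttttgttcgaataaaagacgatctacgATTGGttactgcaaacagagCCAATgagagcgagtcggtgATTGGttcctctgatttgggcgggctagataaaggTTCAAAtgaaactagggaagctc
Kif11: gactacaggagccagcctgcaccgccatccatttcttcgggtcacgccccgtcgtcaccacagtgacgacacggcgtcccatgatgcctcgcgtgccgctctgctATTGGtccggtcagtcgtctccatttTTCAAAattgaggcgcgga
Bub1: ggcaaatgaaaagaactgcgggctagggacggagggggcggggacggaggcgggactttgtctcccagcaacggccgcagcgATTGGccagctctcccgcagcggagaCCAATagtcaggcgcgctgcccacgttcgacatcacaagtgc
Top2a held CCAAT or its complement 4 times and TTCAAA 23 bases before the start, Kif11 held one of each, and Bub1 held CCAAT letters only.

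The genes that decide entry into the cycle were mixed. Of 24 G1 cyclins, kinases and inhibitors, 14 rose and 3 fell, with 9 without WT memory replicate 1 or 3 rising, and 10 of 20 rose without the 4 that passed the filter through WT memory cells alone (median log2 fold change 0.27). E2f2, an activator of replication genes, had 48.7, 54.6 and 52.8 CPM in WT memory cells, against 10.4, 12.1 and 10.0 CPM in WT naive cells (log2 fold change 2.26 ± 0.10, adjusted p = 4.07e-11, edgeR). Ccnd2, the D-type cyclin of resting lymphocytes, went down, with 261, 243 and 259 CPM in WT memory cells, against 521, 539.8 and 512 CPM in WT naive cells (log2 fold change -1.04 ± 0.07, adjusted p = 3.28e-09, edgeR). Cdkn1a, the cell cycle inhibitor p21, had 3.20, 2.29 and 3.65 CPM in WT memory cells, against 0.0613, 0.178 and 0 CPM in WT naive cells (146 reads over the WT memory and 4 over the WT naive libraries). Among quiescence genes 11 of 26 rose and 6 fell, against 19.5% and 16.7% of all genes tested. Tob1 and Btg2, antiproliferative adaptors of mRNA decay, had log2 fold changes of 1.61 ± 0.09 and 0.92 ± 0.06, against -2.29 ± 0.09 for Ddit4. Of 19 p53 target genes 12 rose and 1 fell (2 without WT naive replicate 2), and 10 of 17 rose without the 2 that passed the filter through WT memory cells alone (median log2 fold change 0.29); among the rises was Pmaip1, which encodes the death protein NOXA (54.8, 63.9 and 56.6 CPM in WT memory cells, against 7.73, 6.99 and 7.25 CPM in WT naive cells).

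Effector transcription factors rose together, most of them to levels below WT effector cells. Of 16 tested, 15 rose and 0 fell, with a median log2 fold change of 1.87, and 14 of 15 rose without the 1 that passed the filter through WT memory cells alone (median log2 fold change 1.82); against WT effector cells 2 were higher in WT memory cells and 12 were lower. Tbx21, which encodes T-bet, had 38.2, 42.6 and 42.7 CPM in WT memory cells, against 3.62, 3.49 and 3.94 CPM in WT naive cells (log2 fold change 3.48 ± 0.12, adjusted p = 9.57e-13, edgeR). In the fit with WT effector cells Tbx21 averaged 39.9 CPM in WT memory cells and 384 CPM in WT effector cells (log2 difference -3.26 ± 0.07). Bhlhe40, a repressor needed for cytokine production and tissue residency, had 91.9, 104.6 and 97.1 CPM in WT memory cells, against 2.45, 2.78 and 1.97 CPM in WT naive cells (log2 fold change 5.34 ± 0.12, adjusted p = 1.31e-14, edgeR). Irf4, which scales with antigen receptor signal strength, had 128, 124 and 131 CPM in WT memory cells, against 10.9, 13.0 and 13.6 CPM in WT naive cells (log2 fold change 3.35 ± 0.09, adjusted p = 9.23e-14, edgeR). Irf4 was near its level in WT effector cells (119, 114 and 109 CPM), with a log2 difference of 0.12 ± 0.05 (adjusted p = 0.0609, edgeR). Irf8, a factor shared with B cells and dendritic cells, had 33.7, 34.5 and 35.1 CPM in WT memory cells, against 4.11, 6.10 and 5.66 CPM in WT naive cells (log2 fold change 2.70 ± 0.13, adjusted p = 9.08e-11, edgeR).

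Cytotoxic genes moved unevenly. Of 19 tested, 10 rose and 1 fell (0 without WT naive replicate 1 or 3 or WT memory replicate 1, 2 or 3), with a median log2 fold change of 0.25, and 8 of 17 rose without the 2 that passed the filter through WT memory cells alone (median log2 fold change 0.21). Of all 19, 17 were lower than in WT effector cells. Gzmb, granzyme B, had 30.3, 33.6 and 27.3 CPM in WT memory cells, against 0.429, 0.947 and 1.53 CPM in WT naive cells, with fewer than 10 reads in WT naive replicate 1. WT effector cells had 1833, 1765 and 1869 CPM, so WT memory cells lay far nearer to WT naive cells on the linear scale. Gzma, granzyme A, had 25.1, 26.1 and 22.9 CPM in WT memory cells, against 1.17, 0.355 and 1.40 CPM in WT naive cells, with fewer than 10 reads in WT naive replicate 2. Gzmm, granzyme M, had 15.7, 21.2 and 19.3 CPM in WT memory cells, against 1.47, 1.12 and 1.08 CPM in WT naive cells (log2 fold change 3.93 ± 0.19, adjusted p = 1.15e-10, edgeR), and 23.6, 23.7 and 20.3 CPM in WT effector cells. Fasl, the ligand of the death receptor Fas, averaged 9.39 ± 0.597 CPM in WT memory cells and 0.265 ± 0.0270 CPM in WT naive cells (447 reads over the WT memory and 13 over the WT naive libraries). Prf1, perforin, chosen after its values were seen, had 62.6, 68.2 and 66.1 CPM in WT memory cells, against 63.5, 70.5 and 63.1 CPM in WT naive cells (log2 fold change -0.00 ± 0.08, adjusted p = 0.988, edgeR). Its groups overlapped, while WT effector cells had 245, 257 and 259 CPM.

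Cytokine and chemokine genes moved in both directions. Of 14 tested, 8 rose and 5 fell, and 5 of 11 rose without the 3 that passed the filter through WT memory cells alone (median log2 fold change 0.05). The rises numbered 5 without WT memory replicate 1, 2 or 3 and the falls 3 without WT memory replicate 3, and the median log2 fold change, 1.38 over all libraries, was -0.09 without WT memory replicate 2. Ifng, interferon gamma, had 28.3, 33.6 and 31.0 CPM in WT memory cells, against 0.123, 0.237 and 0.254 CPM in WT naive cells (1483 reads over the WT memory and 10 over the WT naive libraries). WT effector cells, with 539, 509 and 565 CPM, were far higher. Ccl4, a chemokine of activated T cells, had 20.2, 24.1 and 18.9 CPM in WT memory cells, against 0.552, 0.237 and 0.509 CPM in WT naive cells (1006 reads over the WT memory and 21 over the WT naive libraries). Ccl3 had 230 reads over the WT memory libraries and 1 over the WT naive libraries. Il16, a ligand of CD4 made by resting lymphocytes, had 107, 122 and 109 CPM in WT memory cells, against 170.0, 184 and 169 CPM in WT naive cells (log2 fold change -0.63 ± 0.07, adjusted p = 3.63e-06, edgeR), the list's largest fall.

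Among chemokine receptors and integrins, 16 of 27 rose and 5 fell, and 13 of 24 rose without the 3 that passed the filter through WT memory cells alone (median log2 fold change 0.27). Ccr2, the receptor for CCL2, had 27.8, 29.2 and 28.9 CPM in WT memory cells, against 0.368, 0.355 and 0.445 CPM in WT naive cells (1369 reads over the WT memory and 19 over the WT naive libraries). Itgb1, the shared chain of VLA integrins, had 273, 297 and 294 CPM in WT memory cells, against 70.9, 65.7 and 71.2 CPM in WT naive cells (log2 fold change 2.06 ± 0.07, adjusted p = 1.01e-12, edgeR). Both were higher still in WT effector cells, at 525 ± 2.24 CPM and 1402 ± 39.7 CPM. Cxcr5, which guides cells to B cell follicles, had 40.3, 41.2 and 45.9 CPM in WT memory cells, against 2.21, 2.90 and 2.67 CPM in WT naive cells (log2 fold change 4.03 ± 0.13, adjusted p = 6.17e-13, edgeR). Cxcr5 was near the naive level in WT effector cells, with 2.63, 1.91 and 2.58 CPM. B cells also express Cxcr5, and the B cell marker sums given above moved with it; their part was not tested. Itga1, the collagen-binding chain of tissue-resident T cells, had 76 reads over the WT memory libraries and 0 over the WT naive libraries, at least 25.1-fold higher taking a floor of 3 reads over the naive group.

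Receptors for cytokines rose more often than they fell, 15 against 3 of 24, with a median log2 fold change of 0.73, and 13 of 22 rose without the 2 that passed the filter through WT memory cells alone (median log2 fold change 0.56). Ifngr1, a chain of the interferon gamma receptor, had 654, 635 and 655 CPM in WT memory cells, against 185, 179 and 180.3 CPM in WT naive cells (log2 fold change 1.84 ± 0.07, adjusted p = 1.84e-12, edgeR). Il18rap, a chain of the IL-18 receptor, had 106, 89.5 and 100.3 CPM in WT memory cells, against 11.3, 9.29 and 11.4 CPM in WT naive cells (log2 fold change 3.21 ± 0.10, adjusted p = 5.21e-13, edgeR). Its partner Il18r1 averaged 167 ± 8.69 CPM in WT memory cells and 75.4 ± 3.93 CPM in WT naive cells (log2 fold change 1.15 ± 0.07, adjusted p = 2.16e-09, edgeR). Both chains of that receptor thus rose, and both were lower than in WT effector cells (1326 ± 40.5 CPM for Il18rap and 422 ± 5.67 CPM for Il18r1). Among 7 SOCS family genes, feedback inhibitors of cytokine signals, 2 rose and 3 fell, against 19.5% and 16.7% of all genes tested. Cish, a target of STAT5, had 2.93, 4.84 and 3.71 CPM in WT memory cells, against 8.77, 9.12 and 8.20 CPM in WT naive cells (log2 fold change -1.18 ± 0.19, adjusted p = 1.53e-04, edgeR). Socs3, a target of STAT3, had 241, 254 and 229.6 CPM in WT memory cells, against 134, 178 and 123 CPM in WT naive cells (log2 fold change 0.73 ± 0.10, adjusted p = 4.15e-05, edgeR).

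Most inhibitory receptors rose: 15 of 18 tested rose and 2 fell (1 without WT naive replicate 1 or 3 or WT memory replicate 1 or 3), with a median log2 fold change of 1.11, and 13 of 16 rose without the 2 that passed the filter through WT memory cells alone (median log2 fold change 0.91). Ctla4, which competes with CD28 for its ligands, had 240.2, 241 and 248 CPM in WT memory cells, against 51.6, 52.8 and 59.5 CPM in WT naive cells (log2 fold change 2.15 ± 0.07, adjusted p = 9.19e-13, edgeR). It was also higher than in WT effector cells, averaging 236 CPM in WT memory cells and 81.6 CPM in WT effector cells (log2 difference 1.53 ± 0.05, adjusted p = 1.61e-14, edgeR). CD4 T cell markers, a list that holds Ctla4, summed to 349 to 372 CPM in WT memory cells and 102 to 117 CPM in WT naive cells. The part of CD4 T cells in these rises was not tested. Tigit had 19.3, 21.2 and 20.2 CPM in WT memory cells, against 0.736, 0.770 and 1.14 CPM in WT naive cells (log2 fold change 4.51 ± 0.19, adjusted p = 1.05e-11, edgeR). Lag3, which binds MHC class II, averaged 12.7 ± 0.582 CPM in WT memory cells and 1.52 ± 0.486 CPM in WT naive cells (log2 fold change 3.06 ± 0.21, adjusted p = 7.84e-09, edgeR). Lilrb4a, an inhibitory immunoglobulin-like receptor, had 25.6, 30.4 and 27.5 CPM in WT memory cells, against 0.797, 0.947 and 1.46 CPM in WT naive cells (log2 fold change 4.70 ± 0.18, adjusted p = 4.36e-12, edgeR). Klrg1, a marker of terminal effector cells, had 74 reads over the WT memory and 2 over the WT naive libraries, while WT effector cells had 535, 507 and 519.6 CPM. Vsir, which encodes VISTA, a checkpoint of naive T cells, was lower, with a log2 fold change of -0.31 ± 0.07.

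Costimulatory receptors and TNF receptors had 8 rises and 2 falls among 18, with 1 without WT memory replicate 1, 2 or 3 falling. Cd28 had 745, 687 and 740.2 CPM in WT memory cells, against 156, 137 and 165 CPM in WT naive cells (log2 fold change 2.25 ± 0.08, adjusted p = 1.83e-12, edgeR). Icos, a relative of CD28 induced by activation, had 120.4, 124 and 128 CPM in WT memory cells, against 39.7, 34.3 and 37.9 CPM in WT naive cells (log2 fold change 1.73 ± 0.08, adjusted p = 2.54e-11, edgeR). Cd28 and Icos stood clear of the naive libraries in all 3 memory libraries. Proximal T cell receptor signalling genes leaned the other way, with 2 rises and 8 falls of 25 and a median log2 fold change of -0.15. The shares of all genes tested were 19.5% for rises and 16.7% for falls. With 1 library left out the rises numbered 1 without WT naive replicate 1 or 3 or WT memory replicate 1 or 3 and 5 without WT naive replicate 2, and the falls 5 without WT memory replicate 3. Trat1, an adaptor of the receptor complex, averaged 24.5 ± 0.0799 CPM in WT memory cells and 37.7 ± 3.08 CPM in WT naive cells (log2 fold change -0.62 ± 0.09, adjusted p = 6.52e-05, edgeR).

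NK-type receptors, encoded in mice by the Klra (Ly49) and Klrc (NKG2) families, were mostly scarce in WT naive cells. Of 16 tested, 14 rose and 0 fell, but 12 had passed the filter through WT memory cells alone, so that these had to differ. With WT memory replicate 1, 2 or 3 left out, 2 of the list rose, since the others then missed the filter, and 7 rose with a filter of 50 reads. The list's median log2 fold change was 5.79, or 5.16 with genes at 0 naive reads set to their lower bound. Klrk1, the activating receptor NKG2D, had 49.3, 46.7 and 52.4 CPM in WT memory cells, against 10.7, 10.1 and 11.9 CPM in WT naive cells (log2 fold change 2.19 ± 0.10, adjusted p = 5.09e-11, edgeR). Klrd1, the CD94 partner of NKG2 receptors, had 216, 212 and 209.9 CPM in WT memory cells, against 198, 166 and 199 CPM in WT naive cells (log2 fold change 0.18 ± 0.07, adjusted p = 0.0701, edgeR), which was not called, or called with all 9 WT libraries in 1 fit. Klra3 had 9.13, 9.80 and 9.08 CPM in WT memory cells, against 0.307, 0.118 and 0.254 CPM in WT naive cells (446 reads over the WT memory and 11 over the WT naive libraries). Klra6 had 445 reads over the WT memory and 3 over the WT naive libraries. Genes of the Klra family resemble each other, so reads may have been split among them. NK cell markers, summed over the list, were at 438 to 518 CPM in WT memory cells, 5468 to 5815 CPM in WT effector cells and 258 to 263 CPM in WT naive cells, where Ncr1, Klra8 and Klra4 had no reads or are not listed; their part in these rises was not tested.

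Annexin, S100 and galectin genes, known from activated and effector T cells, rose in part. Of 20 tested, 11 rose and 1 fell (0 without WT memory replicate 1 or 3), 8 of 17 rose without the 3 that passed the filter through WT memory cells alone (median log2 fold change 0.35), and 19 were lower than in WT effector cells. Anxa2, a membrane-binding annexin, had 53.02, 62.4 and 58.1 CPM in WT memory cells, against 11.0, 11.0 and 10.8 CPM in WT naive cells (log2 fold change 2.40 ± 0.10, adjusted p = 9.16e-12, edgeR). S100a6, a calcium sensor, had 16.6, 22.1 and 16.0 CPM in WT memory cells, against 0.307, 0.237 and 0.127 CPM in WT naive cells (872 reads over the WT memory and 11 over the WT naive libraries). Both lay far below WT effector cells, at 493 ± 9.05 CPM and 263 ± 10.7 CPM. Lgals3, galectin-3, had 248 reads over the WT memory libraries and 0 over the WT naive libraries, at least 82.0-fold higher. Of 8 GIMAP genes, GTPases needed for lymphocyte survival, 3 rose and 1 fell. Gimap6 had 1858, 1828 and 1859 CPM in WT memory cells, against 903, 957 and 908 CPM in WT naive cells (log2 fold change 1.00 ± 0.07, adjusted p = 8.86e-09, edgeR).

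**Figure D4:**
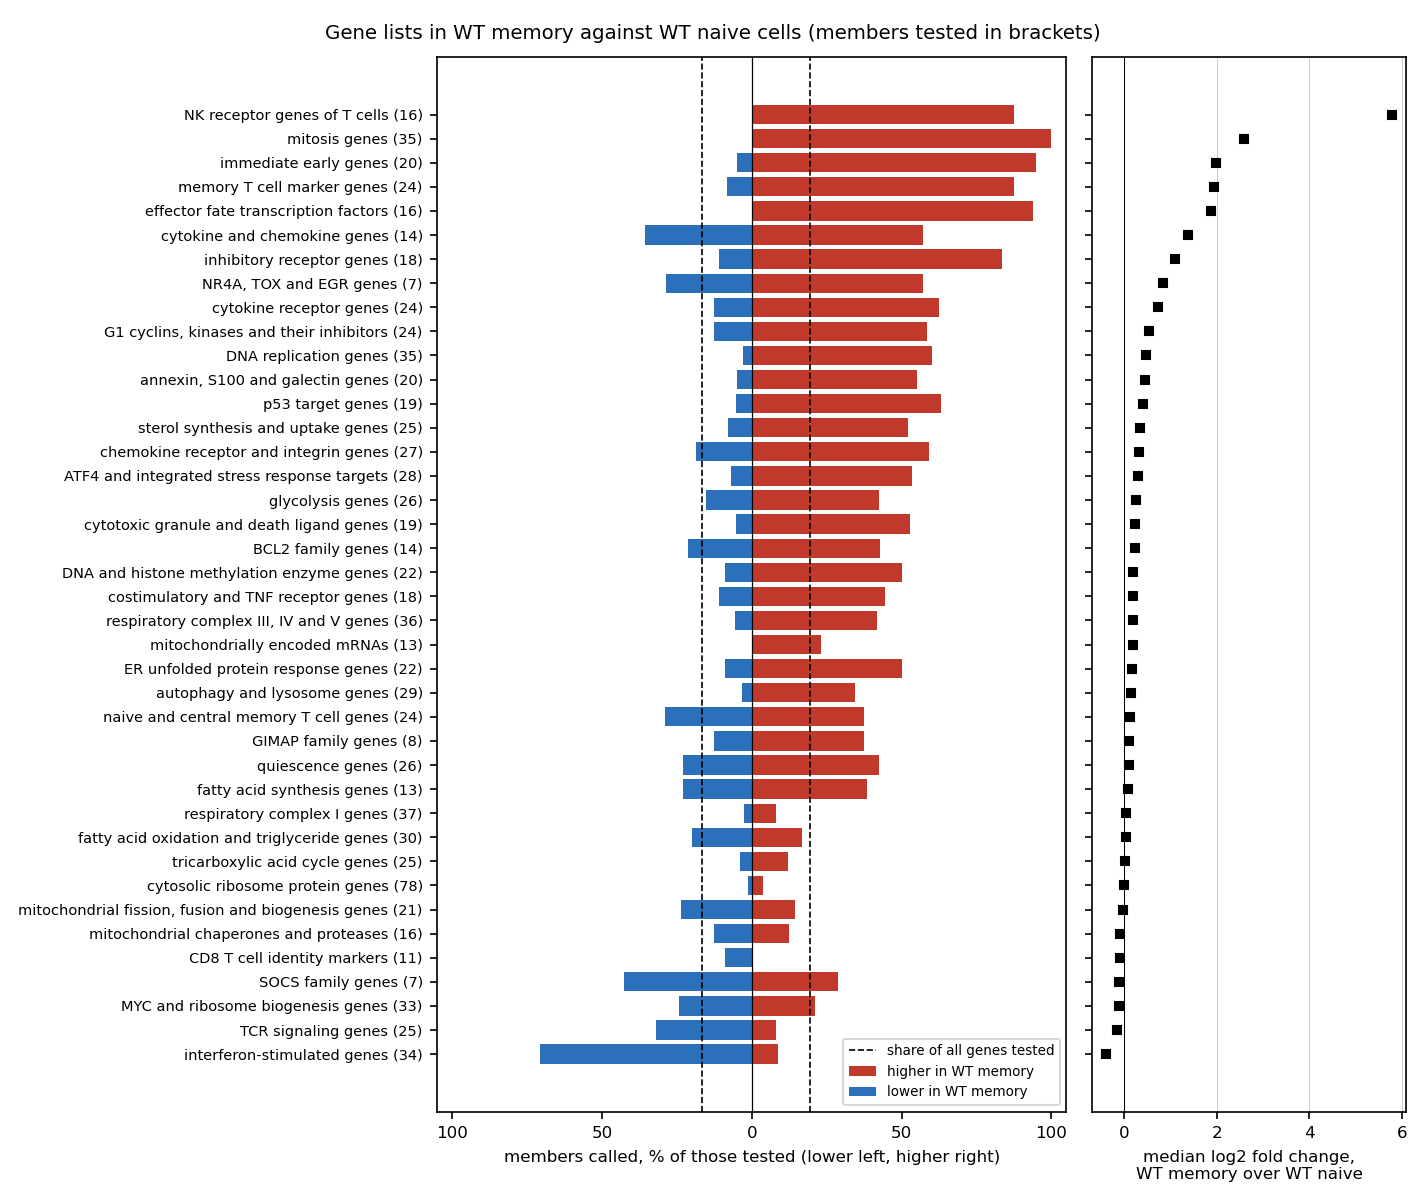
Share of each gene list's tested members called higher (right) or lower (left) in WT memory than in WT naive cells, in percent, with dashed lines at the shares of all genes tested, and beside it the list's median log2 fold change. Members that passed the filter through WT memory cells alone are included. Mitosis, immediate early and effector factor lists lie far above the share of all genes for rises, the interferon-stimulated genes above it for falls, and ribosome and complex I lists below both.

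Cytosolic ribosomal protein genes differed little from WT naive cells. Of 78 cytosolic ribosomal protein genes, 3 rose and 1 fell (0 without WT memory replicate 3, 6 without WT memory replicate 2 and 9 without WT naive replicate 2), with a median log2 fold change of -0.00, whereas 76 of them were higher than in WT effector cells (median log2 difference 0.90). Summed, they were at 79362 to 93090.0 CPM in WT memory cells, 43819 to 44407 CPM in WT effector cells and 78683 to 92074 CPM in WT naive cells. Of 33 MYC and ribosome biogenesis genes, 7 rose and 8 fell, against 19.5% and 16.7% of all genes tested, or 13 fell with scaling by library totals alone. Myc itself had 278, 299 and 289.5 CPM in WT memory cells, against 156, 194 and 155 CPM in WT naive cells (log2 fold change 0.78 ± 0.08, adjusted p = 2.10e-06, edgeR). Odc1, the first enzyme of polyamine synthesis and a classic MYC target, had 247, 272 and 256 CPM in WT memory cells, against 63.1, 63.3 and 65.1 CPM in WT naive cells (log2 fold change 2.02 ± 0.07, adjusted p = 9.41e-13, edgeR). Nop2, a methyltransferase of ribosomal RNA, averaged 55.7 ± 5.93 CPM in WT memory cells and 78.7 ± 9.04 CPM in WT naive cells (log2 fold change -0.50 ± 0.10, adjusted p = 6.41e-04, edgeR).

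The largest apparent change of a ribosomal gene involved near-identical copies. Rplp0 had 3231, 3785 and 3298 CPM in WT memory cells, against 1420.2, 1481 and 1336 CPM in WT naive cells (log2 fold change 1.28 ± 0.08, adjusted p = 3.32e-09, edgeR). Its processed pseudogenes Gm8730 and Gm9625, chosen after their values were seen, went the other way: Gm8730 had 29.6, 20.2 and 20.5 CPM in WT memory cells, against 1209.6, 1409.8 and 1112 CPM in WT naive cells. Gm9625 had 0.613, 0.620 and 1.00 CPM in WT memory cells, against 189.6, 165 and 182 CPM in WT naive cells. Summed over the 3 genes, the level was 3462 ± 299 CPM in WT memory cells and 2835 ± 214 CPM in WT naive cells, a ratio of 1.22, so the single values of these copies are uncertain. WT effector cells stood with WT memory cells for both pseudogenes, with 13.6, 13.9 and 18.0 CPM of Gm8730 and 1.05, 1.98 and 1.05 CPM of Gm9625. Ribosomal RNA that came through the poly-A selection also varied: Rn18s-rs5 had 2421, 1790.0 and 1819 CPM in WT memory cells, against 2334, 9899.7 and 12067 CPM in WT naive cells, where replicates 2 and 3 stood apart.

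Glycolysis genes had 11 rises and 4 falls of 26, with a median log2 fold change of 0.27, and 10 of 25 rose without the 1 that passed the filter through WT memory cells alone (median log2 fold change 0.19). Hk2, the inducible hexokinase, had 6.41, 7.63 and 9.19 CPM in WT memory cells, against 1.17, 1.72 and 2.16 CPM in WT naive cells (log2 fold change 2.204 ± 0.24, adjusted p = 2.58e-06, edgeR). Slc2a1, the glucose transporter GLUT1, had 48.2, 51.6 and 47.0 CPM in WT memory cells, against 24.4, 30.4 and 24.4 CPM in WT naive cells (log2 fold change 0.89 ± 0.10, adjusted p = 2.92e-06, edgeR). Pdk1, a kinase that inhibits pyruvate dehydrogenase, had 271, 277 and 259.9 CPM in WT memory cells, against 373, 364 and 371 CPM in WT naive cells (log2 fold change -0.46 ± 0.06, adjusted p = 3.41e-05, edgeR). Pdk1 was far lower in WT effector cells, at 21.1, 24.1 and 23.1 CPM. Gapdh had 73.9, 65.5 and 43.7 CPM in WT memory cells, against 14.4, 17.2 and 15.5 CPM in WT naive cells, and has many processed copies in the genome, so its level is uncertain.

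Genes of the tricarboxylic acid cycle and of complex I were close to their naive levels. Those of complexes III to V rose more often, though less so without WT memory replicate 2. Of 25 genes of the tricarboxylic acid cycle 3 rose (1 without WT memory replicate 2 or 3) and 1 fell (0 without WT memory replicate 1 or 3). Of 37 complex I genes 3 rose (1 without WT naive replicate 2 or WT memory replicate 2 or 3) and 1 fell (2 without WT naive replicate 3 or WT memory replicate 2). Complexes III to V had 15 rises and 2 falls of 36, against 19.5% and 16.7% of all genes tested, with a median log2 fold change of 0.20. The rises numbered 8 without WT memory replicate 2, and the falls 0 without WT memory replicate 1 or 3 and 1 without WT naive replicate 1 or 3. Summed, the genes of complexes III to V were at 3904 to 4369 CPM in WT memory cells and 3594 to 4054 CPM in WT naive cells, so the groups overlapped. Cox5a, a subunit of cytochrome c oxidase, had 39.1, 46.6 and 41.5 CPM in WT memory cells, against 34.9, 27.9 and 29.9 CPM in WT naive cells (log2 fold change 0.46 ± 0.10, adjusted p = 0.00215, edgeR). Of 16 mitochondrial chaperones and proteases 2 rose and 2 fell (1 without WT naive replicate 1, 2 or 3 or WT memory replicate 1 or 3), with Hspd1, the matrix chaperonin HSP60, at 0.29 ± 0.07 and Grpel2, a nucleotide exchange factor of GRP75, at -0.52 ± 0.09. Polg2, the accessory subunit of the mitochondrial DNA polymerase, had 56.2, 60.4 and 57.0 CPM in WT memory cells, against 22.9, 23.4 and 26.4 CPM in WT naive cells (log2 fold change 1.26 ± 0.09, adjusted p = 1.06e-08, edgeR). Among the 21 genes of fission, fusion and biogenesis, 3 rose and 5 fell (2 without WT memory replicate 1, 2 or 3 and 3 without WT naive replicate 2), against 19.5% and 16.7% of all genes tested.

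Transcripts of the mitochondrial chromosome made up 2.41% ± 0.0679 of reads in WT memory cells and 2.12% ± 0.222 in WT naive cells. The difference of 0.29 percentage points had p = 0.1 in an exact two-sided permutation test, the smallest p that 3 against 3 libraries allow. Without WT naive replicate 2, the naive library with the lowest share, it was 0.16 percentage points. Of 13 mitochondrial mRNAs 3 rose (5 without WT memory replicate 2) and 0 fell. mt-Nd1, a complex I subunit, had 2493, 2683 and 2676 CPM in WT memory cells, against 2051, 1647 and 1973 CPM in WT naive cells (log2 fold change 0.47 ± 0.09, adjusted p = 4.27e-04, edgeR).

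Of 30 genes of fatty acid oxidation, which memory CD8+ T cells are known to rely on, and of triglyceride synthesis, 5 rose and 6 fell, near the shares of all genes tested (19.5% and 16.7%). Cpt1a, which admits long-chain fatty acids to mitochondria, had 53.2, 57.2 and 54.8 CPM in WT memory cells, against 145, 159 and 157 CPM in WT naive cells (log2 fold change -1.48 ± 0.07, adjusted p = 7.43e-11, edgeR). The naive level was the higher in each library, and WT effector cells lay between, at 80.0, 72.0 and 79.4 CPM. Acadm, the medium-chain acyl-CoA dehydrogenase, had 43.8, 50.1 and 47.3 CPM in WT memory cells, against 83.3, 72.3 and 80.2 CPM in WT naive cells (log2 fold change -0.74 ± 0.08, adjusted p = 2.65e-06, edgeR). Aqp9, the glycerol channel that memory cells use for triglyceride synthesis, had 5.93, 7.32 and 5.72 CPM in WT memory cells, against 0.797, 2.13 and 0.827 CPM in WT naive cells (log2 fold change 2.32 ± 0.31, adjusted p = 2.06e-05, edgeR). Neutrophils express Aqp9 too, and their markers summed to 19.5 to 22.996 CPM in WT memory cells and 0.440 to 1.25 CPM in WT naive cells; their part in this rise was not tested.

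Sterol genes, targets of SREBP-2, rose more often than they fell: 13 of 25 rose and 2 fell (1 without WT naive replicate 2 or WT memory replicate 2 or 3), with a median log2 fold change of 0.34. Insig1, the SREBP target that holds SREBP in the endoplasmic reticulum, had 98.5, 97.4 and 93.8 CPM in WT memory cells, against 21.0, 18.8 and 20.5 CPM in WT naive cells (log2 fold change 2.26 ± 0.08, adjusted p = 1.79e-12, edgeR). Every memory library stood above every naive library. Idi1, isopentenyl diphosphate isomerase, averaged 13.2 ± 0.461 CPM in WT memory cells and 5.27 ± 0.214 CPM in WT naive cells (log2 fold change 1.33 ± 0.14, adjusted p = 1.43e-06, edgeR). Scd1, a desaturase that makes monounsaturated fatty acids, had 815 reads over the WT memory and 3 over the WT naive libraries. SREBP acts with NF-Y, and CCAAT was in the 150 bases before the start of 15 of 17 matched sterol genes (88.2%), against 27.7% of all genes. The letters CACCCCAC of the sterol regulatory element, chosen after values were seen, were in 1 of the 17 (5.88%), against 1.97% of all genes. The stretch of Idi1, at chr13:8885456-8885605 (plus strand) on GRCm38.p6, is shown because it holds the CCAAT letters near the start, with CCAAT or ATTGG in capitals.
Idi1: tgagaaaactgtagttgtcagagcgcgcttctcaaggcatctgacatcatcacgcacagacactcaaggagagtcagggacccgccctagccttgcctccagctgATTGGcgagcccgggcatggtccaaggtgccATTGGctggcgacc
Idi1 held ATTGG 45 and 14 bases before its start.

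Stress pathways rose in part. Of 28 ATF4 and integrated stress response targets 15 rose and 2 fell (1 without WT naive replicate 2 or WT memory replicate 1 or 3), with a median log2 fold change of 0.30, and 13 of 26 rose without the 2 that passed the filter through WT memory cells alone (median log2 fold change 0.25). Slc38a2, the amino acid transporter SNAT2, had 874, 834 and 897 CPM in WT memory cells, against 313, 279 and 312 CPM in WT naive cells (log2 fold change 1.53 ± 0.07, adjusted p = 8.21e-11, edgeR). Niban1, a stress-induced gene of the translation response, averaged 27.9 ± 1.88 CPM in WT memory cells and 6.34 ± 0.733 CPM in WT naive cells (log2 fold change 2.14 ± 0.12, adjusted p = 8.39e-10, edgeR). Of 22 genes that answer misfolded protein in the endoplasmic reticulum, 11 rose and 2 fell (1 without WT memory replicate 1 or 3). Hspa5, which encodes the chaperone BiP, had 971, 1089 and 974.6 CPM in WT memory cells, against 416, 403 and 390.4 CPM in WT naive cells (log2 fold change 1.33 ± 0.07, adjusted p = 4.89e-10, edgeR). Atf6, a membrane-bound sensor of that response, had 26.3, 30.9 and 29.3 CPM in WT memory cells, against 4.78, 4.204 and 5.02 CPM in WT naive cells (log2 fold change 2.63 ± 0.13, adjusted p = 8.45e-11, edgeR). Dnajc3, an inhibitor of eIF2alpha kinases, fell, with a log2 fold change of -0.39 ± 0.06. Autophagy and lysosome genes had 10 rises and 1 fall (0 without WT memory replicate 1 or 2) of 29, with Map1lc3b, which encodes LC3B, at 0.61 ± 0.07.

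Interferon-stimulated genes had the lowest median of the 48 lists. Of 34 tested, 24 fell and 3 rose, with a median log2 fold change of -0.39, against -0.00 over all genes. Compared with WT effector cells, 24 were higher in WT memory cells and 4 were lower, with a median log2 difference of 0.63. Ifit1, which binds viral RNA that lacks a host cap, had 9.00, 10.3 and 9.37 CPM in WT memory cells, against 41.2, 38.9 and 36.8 CPM in WT naive cells (log2 fold change -2.03 ± 0.10, adjusted p = 1.85e-10, edgeR). The related gene Ifit3 had 17.6, 19.6 and 14.5 CPM in WT memory cells, against 40.8, 43.2 and 40.4 CPM in WT naive cells (log2 fold change -1.27 ± 0.11, adjusted p = 1.26e-07, edgeR). Oas2, an enzyme that activates RNase L, had 36.7, 35.5 and 37.3 CPM in WT memory cells, against 63.9, 69.4 and 67.2 CPM in WT naive cells (log2 fold change -0.87 ± 0.08, adjusted p = 1.94e-07, edgeR). In each of the 3 genes every memory library lay below every naive library. The exceptions that rose were Oasl2, Gbp2 and Gbp3, of which Oasl2, an OAS-like gene, had 13.0, 11.9 and 12.4 CPM in WT memory cells, against 1.47, 2.01 and 1.08 CPM in WT naive cells (log2 fold change 3.02 ± 0.21, adjusted p = 7.93e-09, edgeR).

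The interferon-stimulated response element, written as TTTC, any 2 bases and TTTC again, was in the 150 bases before the start of 12 of 24 matched genes of this list (50%), against 1.85% of all genes. The motif's letters were added after values were seen. The stretches of Ifit1, at chr19:34640739-34640888 (plus strand), and Ifit3, at chr19:34583379-34583528 (plus strand), both on GRCm38.p6, are shown because these genes fell and hold the element, in capitals.
Ifit1: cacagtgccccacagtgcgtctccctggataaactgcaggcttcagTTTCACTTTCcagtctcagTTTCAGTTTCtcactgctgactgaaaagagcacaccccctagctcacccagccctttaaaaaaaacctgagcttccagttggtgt
Ifit3: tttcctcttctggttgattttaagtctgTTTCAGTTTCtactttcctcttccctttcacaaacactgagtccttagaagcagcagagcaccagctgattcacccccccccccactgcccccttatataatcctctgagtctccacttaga
Ifit1 held the element 104 and 85 bases before its start and Ifit3 held it 122 bases before its start.

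Enzymes that write or erase methyl marks had 11 rises and 2 falls of 22. The rises numbered 7 with scaling by library totals alone and 7 without WT memory replicate 1 or 3, and the falls 1 without WT naive replicate 2 or WT memory replicate 2 or 3. Kdm6b, a demethylase of H3K27, had 206, 185 and 207 CPM in WT memory cells, against 85.0, 113 and 94.9 CPM in WT naive cells (log2 fold change 1.03 ± 0.09, adjusted p = 2.03e-07, edgeR). Ezh2, the methyltransferase of the same residue, had 70.5, 70.5 and 67.0 CPM in WT memory cells, against 44.3, 35.3 and 42.0 CPM in WT naive cells (log2 fold change 0.77 ± 0.09, adjusted p = 3.79e-06, edgeR). Dnmt1, which maintains DNA methylation, was lower, with 151, 143 and 156 CPM in WT memory cells, against 183, 223 and 189 CPM in WT naive cells (log2 fold change -0.40 ± 0.08, adjusted p = 8.31e-04, edgeR). Of 14 BCL2 family genes 6 rose and 3 fell (1 without WT memory replicate 1 or 2), against 19.5% and 16.7% of all genes tested. Bcl2, a survival gene kept up by IL-7, had 230.4, 214 and 234 CPM in WT memory cells, against 267, 255 and 271 CPM in WT naive cells (log2 fold change -0.22 ± 0.07, adjusted p = 0.0142, edgeR). That call was lost without WT naive replicate 3 or without WT memory replicate 1 or 2 (adjusted p from 0.0582 to 0.0599), and WT effector cells had 45.5, 42.6 and 45.1 CPM.

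RNAs that mark other cell types were measured in the same libraries, and most of these lists, though not the stromal and endothelial one, were higher in WT memory cells. All 14 B cell markers but 1 rose, 8 of which passed the filter through WT memory cells alone; none was at 0 in WT naive cells. Without Ighm they summed to 385 to 429 CPM in WT memory cells, 157 to 161 CPM in WT effector cells and 36.4 to 40.1 CPM in WT naive cells. Cd74, the invariant chain of MHC class II, had 167, 191 and 159.7 CPM in WT memory cells, against 4.78, 5.80 and 5.02 CPM in WT naive cells (log2 fold change 5.05 ± 0.11, adjusted p = 7.61e-15, edgeR). Ighm, the IgM heavy chain, differed by far less, with 496, 548 and 515 CPM in WT memory cells, against 401, 443 and 405 CPM in WT naive cells (log2 fold change 0.32 ± 0.07, adjusted p = 0.00202, edgeR). Ighg2c and Igkc, a heavy and a light chain gene chosen after their values were seen, had 99.2, 127 and 103 CPM and 94.3, 123 and 99.6 CPM in WT memory cells, against at most 0.509 CPM and 1.47 CPM in WT naive cells.

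The other marker lists were read in the same way, and there 8 of 12 myeloid, 4 of 4 neutrophil, 1 of 6 erythroid and platelet and 4 of 8 NK cell markers tested passed the filter through WT memory cells alone. The 8 CD4 T cell markers summed to 349 to 372 CPM in WT memory cells and 102 to 117 CPM in WT naive cells, and 6 of 8 rose. Cd4 itself had 7.43, 6.08 and 7.78 CPM in WT memory cells, against 1.10, 2.13 and 1.78 CPM in WT naive cells, and Ctla4 and Ikzf2, which CD8+ T cells also express, made up much of the sum. The largest called rise of the list was that of Zbtb7b. The 18 myeloid and dendritic cell markers summed to 80.8 to 90.4 CPM in WT memory cells, 818 to 824 CPM in WT effector cells and 5.62 to 6.03 CPM in WT naive cells, where C1qa, C1qb, Siglech, Xcr1, Cd209a, Clec9a and Ms4a7 had no reads or are not listed. Itgax, which activated T cells also express, had 705, 720 and 709 CPM in WT effector cells and made up most of that sum. Neutrophil markers summed to 19.5 to 22.996 CPM in WT memory cells and 0.440 to 1.25 CPM in WT naive cells; Ly6g had no reads in either group, and Mpo, Cxcr2 and Mmp8 had none or are not listed in WT naive cells. Erythroid and platelet markers summed to 30.7 to 40.8 CPM in WT memory cells and 5.28 to 15.6 CPM in WT naive cells. Of 5 gamma-delta T cell markers tested, 3 rose, and the list summed to 16.6 to 17.8 CPM in WT memory cells and 10.2 to 11.6 CPM in WT naive cells. The stromal and endothelial list, almost all Pecam1, was at 161 to 170.4 CPM in WT memory cells and 166 to 174 CPM in WT naive cells. With any 1 WT memory library left out the called rises numbered 5 B cell, 4 myeloid, 0 neutrophil and 3 NK cell markers, since the rest then missed the filter. The part of these transcripts in the results above was not tested.

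**Figure D5:**
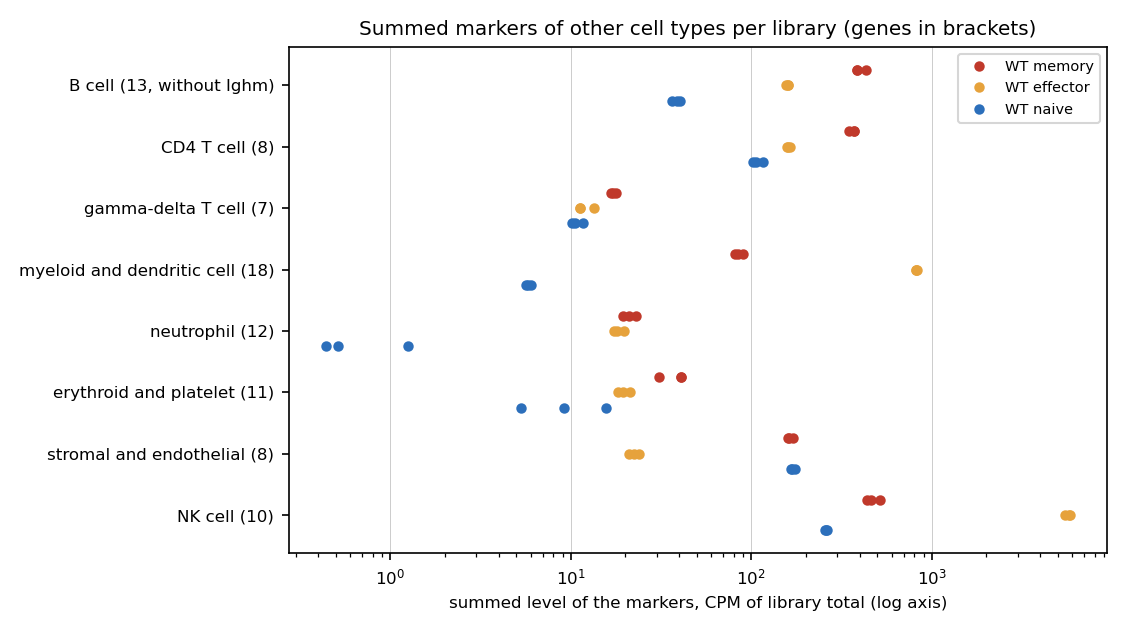
Summed level, as CPM on a log axis, of marker genes of other cell types in WT memory, WT effector and WT naive cells, each point 1 library. B cell, CD4 and neutrophil markers are higher in WT memory than in WT naive cells, and myeloid and NK markers are highest in WT effector cells. Itgax makes up most of the myeloid sum in WT effector cells.

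Some genes are listed in only one state's table and were not tested. The memory table lists 2767 genes that the naive table does not, 36 of them with at least 10 reads in all 3 WT memory libraries, and 19 of those 36 are immunoglobulin segments. Mpo, the myeloperoxidase of granulocyte precursors, had 8.39, 7.22 and 6.41 CPM of the library total in the WT memory libraries. The naive table lists 1597 genes that the memory table does not, 3 of them with at least 10 reads in all WT naive libraries. Cpne4, a copine gene chosen after its values were seen, was among these, at 23.3, 24.2 and 25.4 CPM in the WT naive libraries.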

How the data were processed

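Of the 18 libraries, made from poly-A RNA of CD8+ T cells of mice, 9 are WT. The submitters' processing notes name fastp, HISAT2 2.2.1, featureCounts 2.0.6, DESeq2 1.42.0 and the build GRCm39, without the role or settings of each. The authors deposited 1 table per cell state of signal values per gene, scaled within each state. Every value was a whole multiple of the column's smallest (100% of values, within 1e-05 of a read), so reads were recovered by division and normalized over the libraries compared.

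Genes listed in both tables with at least 10 reads in at least 3 libraries were tested with edgeR 4.0.16 in R 4.3.3 (quasi-likelihood test on counts, TMM, Benjamini-Hochberg adjustment), without a replicate block. DESeq2 1.42.0 and limma 3.58.1 served as alternatives. In simulated data for the comparison of WT memory with WT naive cells (14145 genes), 38 of 50 genes changed 1.5-fold and 50 of 50 changed 2-fold were recovered, and 17 of 13945 unchanged genes were called. Only genes with a mean of at least 50 reads were changed, so recovery of lower genes was not measured.

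The members and the 48 gene lists were chosen with earlier results of these data known. Genes were named by rule: the 12 largest called changes in each direction with mean log2 CPM 4 or more, groups that did not overlap and a known symbol; any member of the naive and memory lists; and of other lists up to 4 called members with the smallest adjusted p plus the largest rise and fall; and Hspa9. Some genes chosen by this rule are not reported here. Of 1095 list entries, which hold 1021 distinct symbols, 16 were matched by an older symbol and 15 found no match. Promoters are RefSeq's on GRCm38.p6 and were matched by symbol.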

Additional observations from a re-analysis of the deposited data

How the results depend on the processing

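Under 10 alternative settings and with each library left out, the number of genes called between WT memory and WT naive cells lay between 3451 and 5771, around 5127. With 1 library left out at a time the total was 3451 to 4933, the rises 1898 to 2733, the falls 1553 to 2200, the rises of at least 2-fold 795 to 1261 and the falls of at least 2-fold 210 to 237. A filter of 50 reads left 680 rises and 135 falls of at least 2-fold, and limma on log2(CPM + 1) gave 94 such falls, since the pseudocount shrinks changes of low genes. Against WT effector cells, rises of at least 2-fold numbered 2086, or 1330 with the filter of 50 reads and 1314 with limma. Scaling by the upper quartile moved the median of all genes to 0.16 in that comparison. With the replicate number as a block, 4878 genes were called against WT naive cells and 9692 against WT effector cells. Deviations of same-numbered WT memory and WT naive libraries correlated at -0.16, -0.01 and 0.13, so the numbers were not taken to pair the samples.

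Of 262 named genes, 223 had a value under all 16 alternatives, and 194 of these kept direction and call in each. The other 39 missed a filter in at least 1 alternative, and 36 of them kept both where they had a value. The log2 fold changes that changed sign were those of Actn1, Pecam1 and Prf1. Actn1 was at -0.13 to 0.0029 with a library left out. Pecam1 was at 0.00030 with DESeq2's size factors, 0.00038 with DESeq2, 0.0094 with the upper quartile, 0.016 with the filter of 50 reads and -0.016 to 0.032 with a library left out. Prf1 was at 0.00090 with DESeq2's size factors and with DESeq2, 0.010 with the upper quartile, 0.017 with the filter of 50 reads and -0.031 to 0.051 with a library left out. The causes were not tested. At this depth a gene with fewer than 10 reads in 3 libraries could not be tested, which limits what can be said of genes read in WT memory cells alone.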

Other observations

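Further groups were measured that belong to no single comparison above. Fatty acid synthesis genes had 5 rises and 3 falls of 13 tested (1 without WT memory replicate 1 or 3), and 4 of 12 rose without the 1 that passed the filter through WT memory cells alone (median log2 fold change 0.04). Elovl6, an elongase, had 58.1, 53.2 and 59.3 CPM in WT memory cells, against 38.0, 33.2 and 32.0 CPM in WT naive cells (log2 fold change 0.73 ± 0.09, adjusted p = 8.00e-06, edgeR), and Acacb, the acetyl-CoA carboxylase of the mitochondrial membrane, had 2.73, 2.11 and 2.53 CPM in WT memory cells, against 4.85, 6.10 and 6.80 CPM in WT naive cells (log2 fold change -1.27 ± 0.22, adjusted p = 2.61e-04, edgeR). Elovl6 thus stood above and Acacb below the naive libraries without overlap. Nfkbiz, an inducible nuclear IkappaB protein, had 387, 389 and 391 CPM in WT memory cells, against 91.6, 90.6 and 92.8 CPM in WT naive cells (log2 fold change 2.09 ± 0.06, adjusted p = 3.68e-13, edgeR). Atf3, a stress-induced factor, had 330 reads over the WT memory and 3 over the WT naive libraries.

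Receptors with a signalling lymphocyte activation or growth role followed. Slamf7 had 33.9, 32.4 and 31.0 CPM in WT memory cells, against 2.45, 2.01 and 2.23 CPM in WT naive cells (log2 fold change 3.86 ± 0.13, adjusted p = 1.23e-12, edgeR). Tnfrsf9, which encodes the costimulator 4-1BB, had 19.8, 21.8 and 19.98 CPM in WT memory cells, against 10.7, 10.9 and 10.2 CPM in WT naive cells (log2 fold change 0.95 ± 0.11, adjusted p = 4.33e-06, edgeR). Ahnak, a large scaffold protein of the cell membrane, had 515, 431 and 497 CPM in WT memory cells, against 149, 159 and 160.0 CPM in WT naive cells (log2 fold change 1.63 ± 0.08, adjusted p = 8.29e-11, edgeR). Il9r, the IL-9 receptor, had 110 reads over the WT memory libraries and 0 over the WT naive libraries, at least 36.4-fold higher with a floor of 3 reads over the naive group. Mxd1, an antagonist of MYC, had 75.8, 74.9 and 75.4 CPM in WT memory cells, against 21.1, 18.1 and 21.2 CPM in WT naive cells (log2 fold change 1.91 ± 0.09, adjusted p = 4.34e-11, edgeR). Col6a4, a collagen gene chosen after its values were seen, had 0, 0.124 and 0 CPM in WT memory cells, against 18.3, 18.5 and 17.7 CPM in WT naive cells, and passed the filter on low reads through WT naive cells alone.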
